A study of Mus musculus with 2 samples.

Results

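The genes examined here encode NF-κB, its cytoplasmic inhibitors and the kinases that release it, in RNA of mouse spleen. The set was 10 genes: the 5 subunits Nfkb1, Nfkb2, Rel, Rela and Relb, the 3 inhibitors Nfkbia, Nfkbib and Nfkbie, and the 2 kinases Ikbkb and Chuk. Members were all probe sets whose gene symbol in the platform's annotation was one of these. This gave 11 of the 12422 probe sets that are not controls, for 8 of the 10 genes. For Nfkb1 and Chuk no probe set carried the symbol in that annotation, 0 probe sets named a member among several genes, and both genes were not analysed here.

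Total RNA of mouse spleen bought from Clontech was hybridised to 2 oligonucleotide arrays, named array 1 and array 2 after their titles, which form 1 group. The labels give neither strain, age, treatment nor number of animals, and do not say whether both arrays came from 1 tube of RNA. The spread between the arrays therefore measures these arrays and may be technical. With 1 group there is no comparison between conditions, no p-value was computed, and 2 arrays hold no pattern by which genes could be matched to the members.

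NF-κB is a family of dimeric transcription factors best known for the responses of immune cells to infection, cytokines and antigen. In resting cells the dimers are held in the cytoplasm by IκB proteins. The IκB kinase marks these inhibitors for destruction, after which the dimers enter the nucleus and bind κB sites. In the canonical route dimers of RelA or c-Rel with p50 are freed. In the non-canonical route the precursor p100 is cut to p52, which acts with RelB. The spleen depends on both routes, since B cell survival and the layout of the white pulp need them. The RNA level of a subunit says nothing of where the protein is.

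κB-like sequences in the members' own promoters are shown because genes of this family are known targets of NF-κB, and it is their transcripts that the arrays read. RefSeq windows of 300 bases on GRCm38.p6, from 250 before to 50 after an annotated start, were held for 7 of the 10 members in 9 windows, with 3 of them for Nfkb2. Both strands were searched for the degenerate decameric κB consensus. A match was found for 4 of the 7 genes, Nfkb2, Rel, Nfkbia and Nfkbie, and for 9.55% of all 27025 genes with such windows. A gene with several windows has more chances of a match. Below, capitals mark the matches, and overlapping matches form 1 run of capitals. Each line reads 5′ to 3′ on the strand of its gene.
Nfkb2, chr19:46304688-46304745, plus strand: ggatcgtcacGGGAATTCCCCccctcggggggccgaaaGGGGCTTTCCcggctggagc
Nfkb2, chr19:46305695-46305724, plus strand: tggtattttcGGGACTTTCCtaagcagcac
Rel, chr11:23771041-23771071, minus strand: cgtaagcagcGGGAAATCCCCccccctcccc
Nfkbia, chr12:55492657-55492686, minus strand: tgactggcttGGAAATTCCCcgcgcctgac
Nfkbie, chr17:45555584-45555613, plus strand: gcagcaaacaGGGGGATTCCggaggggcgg

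The matches of Rel, Nfkbia and Nfkbie began 92, 29 and 106 bases before the annotated start. In the first window of Nfkb2 the matches began 39, 38 and 11 bases before its start. The match on the other Nfkb2 line began 10 bases after another annotated start of that gene, and its position is also covered by a further Nfkb2 window. A match that began 236 bases before that start is not shown. The windows of Rela, Nfkbib and Chuk held no match, which says only that these letters are not in those windows. No binding was measured, so a match is a description of the sequence.

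Signals are deposited intensities on a linear scale in arbitrary units. Probe sets are called bright here if both arrays put them above a cutoff, the 60th percentile of the array's signals, at 346.32 for array 1 and 342.22 for array 2. The background came from 15 bacterial control probe sets, the highest of which gave 95 on array 1 and 76.2 on array 2. Of the 8 measured members 6 were bright, against 45.2% of all 8251 named genes, each gene being read by its brightest probe set in the mean of the log2 values. They were the subunits Nfkb2, Rela and Relb, the inhibitors Nfkbia and Nfkbib and the kinase Ikbkb. Rel and Nfkbie were not bright. On array 1 alone 7 of the 8 exceeded the cutoff and on array 2 alone 6, against 47.6% of named genes on either. With probe sets that carry a suffix left out, 6 of 8 were bright, against 43.4%. Counted as probe sets, 7 of 11 were bright, against 37.9% of all probe sets, and 9 of 11 were brighter than every bacterial control of both arrays, against 65.5%. Probes differ in how well they bind, so the levels of different genes are not ranked.

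**Figure D1:**
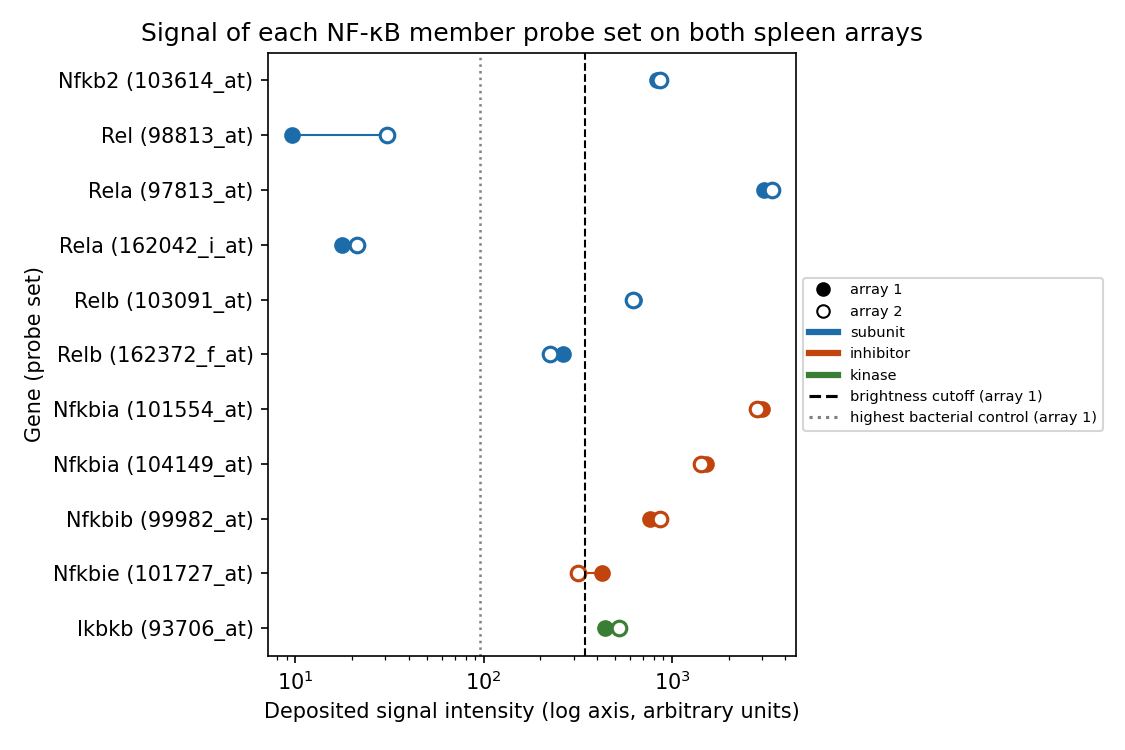
Deposited signal intensity (log axis) of the 11 member probe sets, with array 1 as filled and array 2 as open circles, coloured by role; the dashed line is the brightness cutoff and the dotted line the highest bacterial control, both of array 1. Rel and 1 probe set of Rela lie left of the dotted line on both arrays, and Nfkbie straddles the dashed line.

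Among the subunits, Rela encodes p65, the main activating subunit of the canonical route. The brighter of its probe sets gave 3062.4 on array 1 and 3385.7 on array 2, a mean of 3224 ± 229 (SD, n = 2 arrays here and below). Both arrays were more than 8-fold above the cutoff, at 8.84 and 9.89 times it. The dimmer probe set of Rela, with the suffix _i_at, gave 17.7 and 21.2, under the brightest bacterial control each time. The probe sets of Rela therefore fell on opposite sides of the background, and that suffix marks a probe set with fewer unique probes than the design asked for. Of the 256 probe sets with this suffix 28.1% were bright, against 39.5% of the 9614 with no suffix.

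Relb encodes the subunit that partners p52 in the non-canonical route. The brighter of its probe sets gave 627.5 and 622.7, a mean of 625 ± 3.39. The arrays were 1.01-fold apart, at 1.81 and 1.82 times the cutoff. The other probe set, with the suffix _f_at, gave 263.7 and 224.6, above the bacterial controls but under the cutoff on both arrays. That suffix marks probes that may read a family of similar sequences, and 37.2% of the 1075 probe sets with that suffix were bright.

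Nfkb2 encodes p100, which is both the precursor of p52 and an IκB-like inhibitor of RelB. Its single probe set gave 836.2 on array 1 and 866.3 on array 2, a mean of 851 ± 21.3. Both arrays lay above the cutoff, at 2.41 and 2.53 times it, and they were 1.04-fold apart. With Relb, read by its brighter probe set, both genes of the non-canonical dimer were bright in this RNA, as were 45.2% of all named genes.

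Rel encodes c-Rel, the subunit known for its part in lymphocyte activation. Its single probe set gave 9.6 on array 1 and 30.7 on array 2, a mean of 20.2 ± 14.9. Both values lay below the highest bacterial control, array 1 also below the bacterial median of 20.6 and array 2 above that of 22.9. The arrays were 3.20-fold apart, but values in this range have no order: with the floor at the 20th percentile, 41.8 on both arrays, the log2 difference became 0.0016. Marker genes of the lymphocytes in which c-Rel acts were bright on the same arrays. Cd79a, a chain of the B cell receptor, gave 10602 ± 380.0, and Cd3e, of the T cell receptor complex, gave 1190 ± 48.5. The Rel probe set was thus not above background, which bounds its signal and not the abundance of the transcript.

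Among the inhibitors, Nfkbia encodes IκBα, which is destroyed and made anew within an NF-κB response. It was read by a pair of probe sets, both bright. The brighter gave 3007 on array 1 and 2836.8 on array 2, a mean of 2922 ± 120. The other gave 1505.4 and 1432.4, a mean of 1469 ± 51.6. Array 1 was the higher for both, by 1.06-fold and 1.05-fold.

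Nfkbib encodes IκBβ, which is restored more slowly than IκBα. Its probe set gave 762.8 and 866.7, a mean of 815 ± 73.5, and was bright. Array 2 was the higher by 1.14-fold. Nfkbie encodes IκBε, a further inhibitor of RelA and c-Rel dimers. Its probe set gave 424.2 on array 1 and 315.9 on array 2, a mean of 370.05 ± 76.6. Array 1 lay above the cutoff, at 1.22 times it, and array 2 below, at 0.923 times, so Nfkbie was bright on array 1 alone. Both values were above the bacterial controls. Nfkbie was the member for which 1 array decided the call.

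Of the kinases, Ikbkb encodes IKKβ, the catalytic subunit that marks IκB proteins in the canonical route. Its probe set gave 439.6 on array 1 and 519.9 on array 2, a mean of 479.8 ± 56.8. Both were above the cutoff, by 1.27 and 1.52 times, with array 2 the higher by 1.18-fold. Among the bright member probe sets it was nearest to the cutoff. The partner kinase Chuk, which encodes IKKα and serves the non-canonical route, had no named probe set.

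Of the 8 measured members 3 were read by several probe sets, and for Rela and Relb these fell on opposite sides of the cutoff. Such splits were common on these arrays. More than 1 probe set was held for 2073 named genes, and 882 of these (42.5%) combined a bright probe set with another that was not bright. For 383 of the 2073 (18.5%), Rela among them, a bright probe set stood beside another that exceeded the brightest bacterial control on neither array.

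The bright member probe sets were read about as closely alike by both arrays as bright probe sets in general. A bright probe set must exceed the cutoff on both arrays, which leaves out Nfkbie, 1.34-fold apart. Rel and the dimmer probe sets of Rela and Relb are also left out. Log2 differences are array 2 minus array 1, after the floor, with the median of the bright probe sets set to 0. Over the 7 bright member probe sets the median size of the difference was 0.082, against 0.117 over all 4708 bright probe sets. With quantile normalization these medians were closer, at 0.102 and 0.116. Of the 7, 4 were higher on array 2. The centring itself sets this share to 50% over all bright probe sets, so it is no measured background. The bright member furthest apart was Ikbkb at 1.18-fold, while 1.36-fold bounded 95% of all bright probe sets. Past 1.5-fold lay 0 of the 7, against 1.51% of all bright probe sets. After the floor it was also 0 of the 11 member probe sets, against 13.5% of all probe sets. Rel and the dimmer probe set of Rela lay under the floor on both arrays, so they could not pass. Without the floor the count past 1.5-fold was 1 of 11, the Rel probe set, against 24.5%. None of these backgrounds was matched to the members' signal, so they cannot show that members agree better than other probe sets of like signal.

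The spread between the arrays differed with the signal. When all probe sets were put into 4 groups of equal size by mean signal, 5 member probe sets fell in the brightest group, where the pooled SD of all probe sets was 0.142 on the log2 scale. They were the brighter one of Rela, both of Nfkbia, and those of Nfkb2 and Nfkbib. The 4 of the next group, for Nfkbie, Ikbkb and both of Relb, lay where the pooled SD was 0.234 and 95% of probe sets differed by less than 1.55-fold. Nfkbie, with a log2 difference of -0.42, or 1.34-fold, was inside that range. Rel and the dimmer probe set of Rela lay in the dimmest group, where the pooled SD was 0.230 after the floor had replaced most values. The remaining group, with a pooled SD of 0.522, held 0 members.

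**Figure D2:**
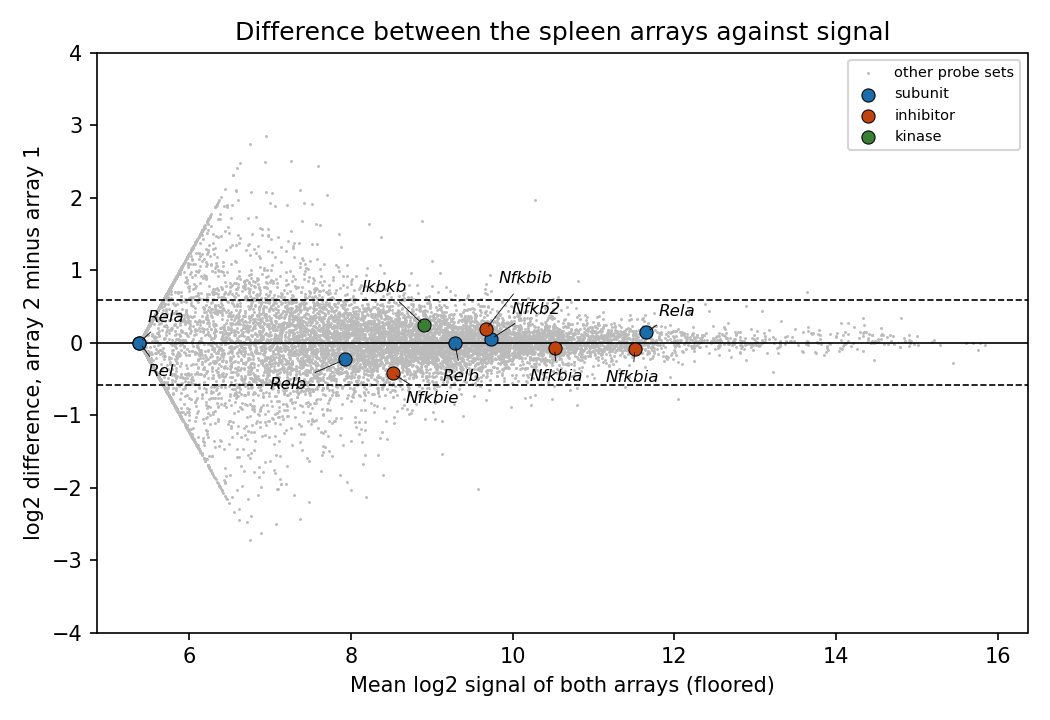
Log2 difference between the arrays (array 2 minus array 1, centred) against the mean log2 signal after the floor, for all probe sets in grey and the members coloured by role; dashed lines mark 1.5-fold. All 11 member probe sets lie between the dashed lines, and the 2 at the far left, Rel and the dimmer probe set of Rela, sit at the floor on both arrays.

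Other genes of the pathway were taken from 5 lists with 101 genes, of which 75 were measured. Across the lists 46 of 75 were bright, beside 45.2% of all named genes. The count fell to 28 of 75 with the cutoff at the 75th percentile, where 28.5% of named genes passed.

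Upstream of the members, 5 of 7 receptors were bright, where 45.2% of named genes were. They were Tnfrsf1a and Tnfrsf1b, the receptors of TNF, at 714 ± 148 and 866 ± 11.2, Cd40, by which T cells help B cells, at 393 ± 33.9, the lymphotoxin receptor Ltbr at 446 ± 85.8, and Cd14, a co-receptor for bacterial lipopolysaccharide, at 1421 ± 120. Tnfrsf1a was read by its brighter probe set, and its other probe set was not bright. Averaged over all probe sets of each gene, the count stayed 5 of 7, against 38.3% of named genes. Tnfrsf11a, the receptor RANK, gave 222 ± 2.83 and Il1r1, for interleukin 1, gave 219 ± 55.3. Neither was bright, though all 7 were above the bacterial controls, as were 73.9% of named genes. At the 75th percentile 2 of 7 were bright, no more than the background of 28.5%.

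Of the adaptors and upstream kinases 15 of 18 were bright, where 45.2% of named genes were, and all 18 exceeded the bacterial controls, as did 73.9% of named genes. Among them Tradd, which docks on TNF receptors, gave 949.7 ± 207, and Traf1 and Traf2, signalling adaptors of the TNF receptor family, gave 377 ± 3.75 and 1097 ± 101. The single probe set of Tradd carries the suffix _r_at, and 19.2% of the 901 probe sets with that suffix were bright. With suffixed probe sets left out, 14 of 17 were bright, against 43.4% of named genes. The death-domain adaptor Fadd at 275 ± 60.6, and the kinases Map3k7 (TAK1) at 161 ± 28.7 and Map3k8 at 192 ± 1.84, were not bright. Averaged over all probe sets of each gene, 12 of 18 were bright, against 38.3% of named genes.

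In the list of other IκB proteins and kinases related to IKK, 6 of 9 were bright, where 45.2% of named genes were. The list also held Tank, Btrc, Cul1 and Skp1, which are neither, and all of these but Btrc were bright. Bcl3, a nuclear IκB protein that acts with p50 and p52, gave 655 ± 3.46, and Ikbke, a kinase related to IKKβ, gave 595 ± 45.5. Ikbkg, the regulatory subunit NEMO that completes the kinase around Ikbkb and Chuk, gave 302.2 and 321.5, a mean of 312 ± 13.6, and was under the cutoff on both arrays. Nfkbiz, a nuclear IκB protein, at 308 ± 4.31, and Btrc, which recognises phosphorylated IκB for destruction, at 290.2 ± 16.8, were also not bright. With the cutoff at the 50th percentile all 9 were bright, against 55.7% of named genes.

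Of the negative regulators 4 of 9 were bright, a share close to the 45.2% of all named genes. Tnfaip3, which encodes A20 and is itself a target of NF-κB, gave 271 ± 15.8 and was not bright, whereas its partner Tnip1 gave 1218 ± 67.5. Zfand5 at 1402 ± 144, Pias1 at 446 ± 45.5 and the cytokine-signalling inhibitor Socs1 at 649 ± 97.7 were bright. Otud7b at 208 ± 20.8, Pias3 at 180.3 ± 8.27, Commd1 at 126 ± 30.7 and Tollip at 397 ± 101 were not. Tollip gave 325.3 on array 1 and 468.8 on array 2, so array 1 alone kept it under the cutoff. At the 75th percentile 2 of the 9 were bright, where 28.5% of named genes were, and all 9 were above the bacterial controls, as were 73.9%.

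Of the textbook target genes 16 of 32 were bright and 24 of 32 lay above the bacterial controls, against 45.2% and 73.9% of named genes. Both shares were near the background. At the 75th percentile 9 of 32 were bright, again near the 28.5% of named genes. The adhesion molecules Icam1 and Vcam1 gave 687 ± 90.8 and 7300.4 ± 184 and were bright, while the endothelial selectin Sele at 16.9 ± 8.84 was below the highest bacterial control. The cytokine Tnf, at 160.1 on array 1 and 114.6 on array 2, was above those controls and not bright. Chosen after their values were seen, Il6 gave 7.3 ± 0.424 and Ptgs2 gave 4.35 ± 0.495, both below the highest bacterial control, and the lymphotoxin chain Ltb gave 4764 ± 107.

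Of the 75 pathway genes 4 were over 1.5-fold apart between the arrays, against 12.5% of all named genes. They were named after their values were seen. Il12b gave 48 and 179.3, Cxcl1 gave 47.4 and 120.7 and Ccl4 gave 88.4 and 38.9 on arrays 1 and 2, all 3 not bright. Junb, a subunit of AP-1, gave 947.8 on array 1 and 468.9 on array 2 and was bright. These values, 2.02-fold apart, come from a probe set with the suffix _r_at, and the other probe set of Junb was also bright. Of all bright probe sets 1.51% were over 1.5-fold apart.

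**Figure D3:**
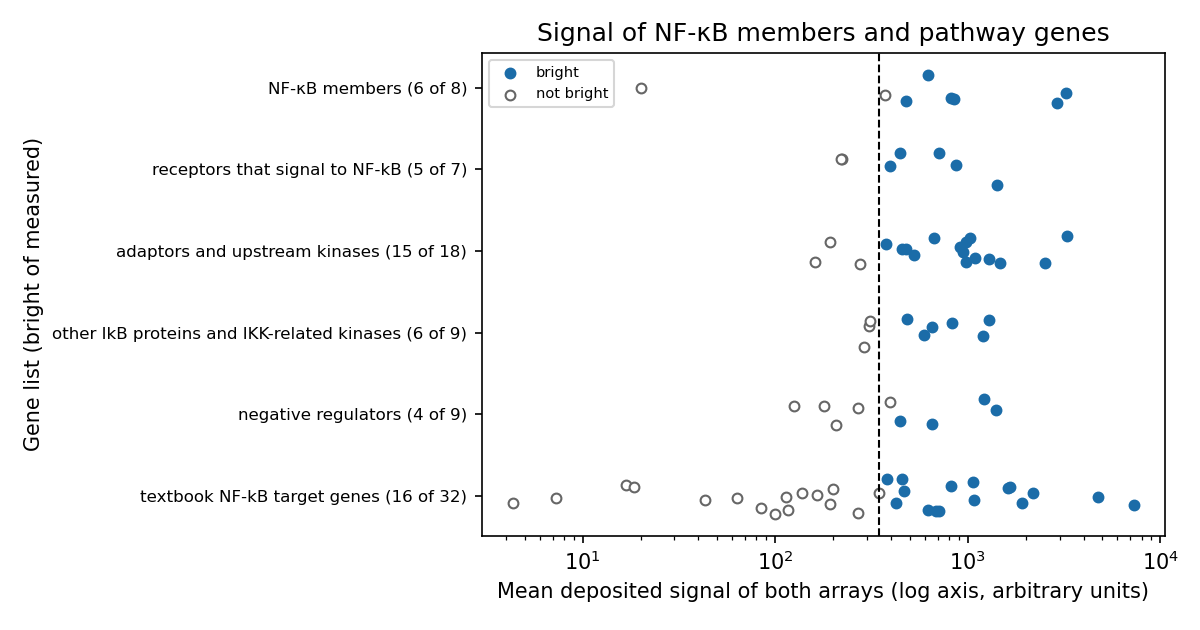
Mean deposited signal of both arrays (log axis) for each measured gene of the NF-κB set and of the 5 pathway lists, filled where bright on both arrays and open where not; points are spread vertically for display only, and the dashed line is the cutoff of array 1. The NF-κB genes show 6 of 8 filled points, and the target genes show 16 of 32.

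The tissue label was checked against markers, beside 45.2% of all named genes that were bright. All 4 measured B cell genes, 4 T cell genes, 4 macrophage genes, among them Csf1r at 3581 ± 84.8, and 3 erythroid genes, among them Alas2 at 12732 ± 125, were bright. Of the brain genes 1 of 4 was bright, the myelin gene Mbp at 725 ± 94.4. The others were Gfap at 184 ± 17.3, which exceeded the bacterial controls, Syt1 at 41.1 ± 15.8 and Snap25 at 6.85 ± 0.919. Of the kidney genes 0 of 3 were bright: Umod gave 7.95 ± 0.919, Slc34a1 gave 118 ± 37.8 and Aqp2 gave 52.5 ± 2.62. All 8 pancreas acinar genes were bright, ranging from 908.4 to 23276.2 (array 1) and from 1039 to 25030.4 (array 2), among them Cela1 at 8880 ± 57.6. Each marker was read by its brightest probe set. Csf1r, Adgre1, Cd68, Cd3d, Mbp and the acinar gene Reg1 each had another probe set that was not bright. Such splits held for 42.5% of named genes with several probe sets. The acinar genes mark an organ other than the labelled one, so the markers did not bear out spleen alone. Neither the source of their RNA nor their part in the members' signals was tested. In RNA of a whole organ a low signal from fewer cells of a type and one from less RNA per cell cannot be told apart.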

How the data were processed

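Both arrays of mouse spleen RNA were used. The authors deposited 1 signal intensity per probe set on a linear scale. The array software and detection calls are not given in the sources used here. Medians were 226.65 and 226.4, and trimmed means (2%) were 499.916 and 499.912. The deposited arrays thus shared a common scale, so near-equal medians and cutoffs say little about their agreement. With only 2 arrays, their number limits the precision. Deposited intensities were raised to a floor at the 20th percentile of each array and put on the log2 scale. Of 12422 probe sets that are not controls 10833 named 1 gene, 396 several and 1193 none. Of the former, 10817 gene identifiers were in the RefSeq table of GRCm38.p6 and 0 symbols changed. A gene's value comes from the probe set with its highest mean log2 signal. The members and lists were chosen with earlier results of these data known. Named genes were all members, the first 4 measured of each pathway list, every gene of a list side with 5 or fewer, and the first measured marker of each list. Outside this rule, Il6, Ptgs2, Ltb, Il12b, Cxcl1, Ccl4, Junb and the further brain and kidney markers were named after their values were seen. So were Tank, Cul1, Skp1, Adgre1, Cd68, Cd3d and Reg1. The script was tested on data with known answers. Alternatives changed the cutoff, array, probe sets, floor and normalization. Computations used pandas 2.3.3 and numpy 2.4.6 under Python 3.11.15, loess came from statsmodels 0.14.6, and figures from matplotlib 3.10.9.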

Additional observations from a re-analysis of the deposited data

How the results depend on the processing

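The number of bright members, 6 of 8, was 7 with the cutoff at the 50th percentile, which 55.7% of named genes passed, or at the highest bacterial control, which 73.9% passed, so that 7 of 8 lies close to the background there. Nfkbie was added in both cases. It was 4 at the 75th percentile, which 28.5% passed, and Relb and Ikbkb were lost. On single arrays it was 6 to 7, the bright member probe sets were 7 to 8, those above the bacterial controls 9 to 9, and the bright pathway genes 47 to 47. The bright pathway genes became 28 of 75 with the cutoff at the 75th percentile. The number of member probe sets over 1.5-fold apart, 0, became 1 with a pseudocount of 16 and no floor, and 1 with no floor and no pseudocount, in both cases the Rel probe set. Of the 35 alternatives for these results and for the median difference, 32 stayed within a set bound and 3 did not. The bound was 1.5 times the count, or the pooled SD of bright probe sets. It is wide: that SD, 0.152, exceeds the median difference of 0.082, and a fall from 6 to 4 bright members counts as within it. The tally therefore cannot show that the results are stable. The median difference of bright members was 0.102 with quantile normalization and 0.099 with loess, against 0.116 over all bright probe sets in both. No paired analysis was possible because the arrays form 1 group. Signal over background limits what can be said of Rel.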
